A study of Mus musculus with 4 samples.

Results

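The switch genes that hold an egg in meiosis or drive a cell into mitosis were followed in mouse embryos of the 2-cell stage. They were chosen by name and not by a rule on their values, though with earlier results of these data known. Mos is a kinase of the cytostatic factor, and Fbxo43, Fbxo5, Cdc20 and Fzr1 are regulators of the anaphase-promoting complex (APC/C). Cdc25a, Cdc25b and Cdc25c are phosphatases of Cdk1, and Wee1 and Wee2 are kinases of Cdk1. All 10 of the 10 listed genes were found among the 53715 rows of the count table by Ensembl gene ID, and all 10 passed the filter on low counts.

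Zygotes collected from the oviduct were injected with an siRNA against SPENH0335 (siSPENH0335, the knockdown group) or with a control siRNA (siNC, the control group), each at 20 μM, and cultured in KSOM, an embryo medium. Each group has 2 libraries of poly(A) RNA, all from embryos of the C57BL/DBA2 strain. The series' title names enhancer-derived RNA, and SPENH0335 is taken to be one. The table's rows are Ensembl gene IDs, none under that name, and rows at its locus were not looked for. The depth of the knockdown was therefore not measured, and the number of embryos per library is not known here.

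An ovulated mouse egg waits in the metaphase of its second meiotic division. Mos starts a MAP kinase cascade that keeps it there, and Fbxo43 (also called Emi2) blocks the APC/C, the ubiquitin ligase that destroys cyclin B. Calcium released at fertilization removes Fbxo43 protein and frees the APC/C. In the mitotic cycles that follow, Fbxo5 (Emi1) restrains the APC/C outside mitosis, while Cdc20 and Fzr1 (Cdh1) are the coactivators that bring it its substrates in mitosis and afterwards. Wee1 and the oocyte kinase Wee2 place inhibitory phosphates on Cdk1, and the Cdc25 phosphatases take them off.

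Libraries held 94257563 and 99011109 counts in knockdown and 87900405 and 78865491 in control, so each member rests on at least 576 counts in every library. Maternal and 2-cell genes were abundant throughout, given here as CPM, a library's counts brought to a common total with TMM scaling. Bmp15, which encodes a growth factor secreted by oocytes, measured 2087 and 2236 CPM in knockdown and 2417 and 2335 CPM in control. Zscan4d, a zinc finger gene of this stage, was at 183 and 177 CPM in knockdown and 141 and 139 CPM in control. Knockdown replicates differed more than control replicates, with a median absolute log2 difference of 0.19 in knockdown and 0.07 in control over the 2111 genes that averaged 100 CPM or more.

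Oocyte mRNAs are stored and translated under the control of short elements near their 3′ ends, among them the cytoplasmic polyadenylation elements TTTTAT and TTTTAAT and the polyadenylation hexamers AATAAA and ATTAAA. Because the libraries were made from poly(A) RNA, a change of tail length and a change of RNA amount cannot be told apart in them. The same holds for differences in level between genes. The 30 bases that lie between 40 and 11 bases from the annotated 3′ end of the principal transcript (GENCODE M21, GRCm38, coding strand) are shown for Mos, the APC/C regulators and the Wee kinases, with these elements in capitals.
Mos: tagggcatatttttaggaAATAAAgttacc
Fbxo43: aATTAAAactaataATTAAAtttaaaattt
Fbxo5: tacacataattttgtttagttaaAATAAAt
Cdc20: TTTTATTTTATtttttctAATAAAgttcgt
Fzr1: gcgccgcctatacagactgtaaagggttga
Wee1: attgtctggtgtATTAAAagtcattccgtg
Wee2: tccagatcattgtaAATAAAgaTTTTATct
The windows lie at chr4:3870667-3870696 for Mos, chr15:36150070-36150099 for Fbxo43, chr10:5799170-5799199 for Fbxo5, chr4:118432911-118432940 for Cdc20, chr10:81366232-81366261 for Fzr1, chr7:110143247-110143276 for Wee1 and chr6:40466774-40466803 for Wee2. The strand is minus for Mos, Fbxo43, Fbxo5, Cdc20 and Fzr1 and plus for Wee1 and Wee2. Cdc20 carries a pair of overlapping TTTTAT elements just before its hexamer, and Wee2 has one just after it, while the Fzr1 window holds none of these letters. Wee2 also has a TTTTAAT that begins 46 bases from the 3′ end, ahead of its hexamer at 26 bases and mostly outside the window shown. Within the last 100 bases of the 3′ UTR, searched on the coding strand, 3 of the 10 members had TTTTAT or TTTTAAT (Fbxo5, Cdc20 and Wee2), against 17.1% of 20643 principal transcripts with a 3′ UTR. An AATAAA or ATTAAA was present in 9 of the 10 members, all but Fzr1, against 77.1% of these transcripts. These matches are descriptions of letters and were not tested as sites.

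In this poly(A) RNA, Wee2 was by far the most abundant of the 10 once transcript length was taken into account. Per kilobase of annotated exon it stood at 376 ± 19.1 CPM in knockdown and 375 ± 0.120 CPM in control (SD, n = 2). Fbxo43 followed at 68.5 ± 16.7 CPM per kb in knockdown and 60.2 ± 0.749 CPM per kb in control, then Cdc20 at 51.4 ± 14.5 CPM per kb in knockdown and 52.8 ± 0.0468 CPM per kb in control. Fbxo5 was the fourth, at 28.9 ± 3.41 CPM per kb in knockdown and 43.2 ± 1.04 CPM per kb in control. The other 6 members lay far below these, between 3.26 and 9.52 CPM per kb in knockdown and between 2.86 and 7.13 CPM per kb in control.

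The order of the mean levels was the same in both groups. Neighbours in this order whose libraries overlapped in both groups were Wee1 and Mos, and Fzr1 and Cdc25c. In knockdown alone the libraries of Fbxo43 and Cdc20, of Mos and Fzr1, and of Cdc25c and Cdc25a also overlapped. The order of the lower members depends on the length used. With the length of the principal transcript, Cdc25c moved up to the fifth place in control and the sixth in knockdown, and Mos became the lowest of the 10, while the order of Wee2, Fbxo43, Cdc20 and Fbxo5 was kept.

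**Figure D1:**
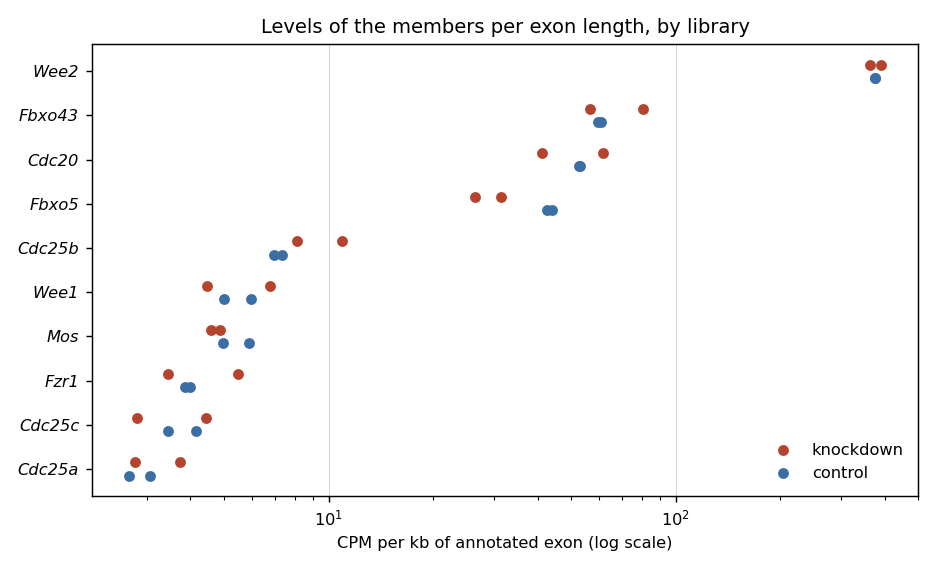
Levels of the 10 members in CPM per kb of annotated exon on a log axis, with one point per library, knockdown above control in each row. Wee2 lies near 376 CPM per kb in both groups, Fbxo43, Cdc20 and Fbxo5 form a middle tier, and the other 6 lie under 11 CPM per kb.

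No member passed the test for a difference between knockdown and control (edgeR quasi-likelihood test, adjusted p 0.9999 for each of the 10). Neither did any other gene, 0% of the 25565 tested, with 984 genes (3.85%) at an unadjusted p under 0.05. DESeq2 called 53 genes, none of them a member, or 0.144% of the 36863 genes with any count. Genes to which DESeq2 gives no adjusted p were not taken out of that number. One member, Fbxo5, had an unadjusted p under 0.05, against 2.29% of all genes tested that had one with a lower level in knockdown. Of the 10 fold changes 6 were above 0 and 4 below, with a median log2 fold change of 0.02, against -0.0025 over all genes tested. Of the genes that averaged 10 CPM or more, 55.4% were above 0, with a median of 0.026. For all 10 members the 95% interval excluded changes beyond 2-fold up or down. The same held for 31.8% of all genes tested and for 87.8% of the 8185 that averaged 10 CPM or more, as all members but Mos did.

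Mos, the kinase at the head of the cytostatic MAP kinase cascade (chromosome 4, 3870657 to 3872105), was among the scarcest members. It was at 7.05 and 6.63 CPM in the knockdown libraries and 8.53 and 7.17 CPM in the control libraries. Both knockdown libraries lay below both controls, which was so for 17.1% of all genes tested. The gap between the groups was smaller than that between the control libraries, and the log2 fold change was -0.20 (SE 0.27, 95% interval -0.88 to 0.49). Over the fits that leave out 1 library it ran between -0.32 and -0.07.

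Fbxo43, the APC/C inhibitor of the arrested egg (chromosome 15, 36150060 to 36164884), was at 229 and 324 CPM in knockdown and 245 and 241 CPM in control. The control libraries were nearly equal, and the knockdown libraries lay on either side of them. The log2 fold change was 0.18 (SE 0.18, 95% interval -0.26 to 0.63), and without knockdown replicate 2 it was -0.08.

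Fbxo5, the APC/C inhibitor of the mitotic cycle (chromosome 10, 5799160 to 5805600), showed the largest separation among the members. It was at 62.7 and 53.0 CPM in knockdown and 88.0 and 85.1 CPM in control. Both knockdown libraries lay below both controls, as for 17.1% of all genes tested. The gap between the groups exceeded the gap within either, a property that was not counted over all genes. Its log2 fold change was -0.58 (SE 0.14, 95% interval -0.94 to -0.22), which is 0.668 of the control level. The unadjusted p was 0.00817, rank 89 from the smallest among all genes tested, and it did not pass the adjustment (edgeR, adjusted p 0.9999; DESeq2, adjusted p 0.216). Over the leave-one-out fits its log2 fold change ran between -0.71 and -0.46.

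Summed stage markers are given beside these values, with no marker past the adjusted test. The 6 maternal oocyte markers summed to 4731 and 4978 CPM in knockdown and 5152 and 5199 CPM in control. The 6 markers of the 2-cell stage summed to 692 and 656 CPM in knockdown and 535 and 587 CPM in control. In both lists the sums did not overlap between the groups, lower in knockdown for the maternal markers and higher for the 2-cell markers. Groups did not overlap for 32.7% of all single genes tested, and the sums themselves were not tested. Of the maternal markers 1 had a fold change above 0 and 5 below, and of the 2-cell markers 5 above and 1 below. The part of either list in the level of Fbxo5 was not tested.

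Markers of other cells were low. The 7 markers of blood, oviduct and stroma summed to between 14.7 and 32.1 CPM in knockdown and between 34.7 and 50.6 CPM in control. Hbb-bs was at 0 in every library. These sums were lower in knockdown without overlap, and of the 6 markers tested 5 had fold changes below 0 and 1 above. The sums of the 8 cumulus and granulosa markers ran from 45.9 to 63.6 CPM in knockdown and from 50.5 to 57.4 CPM in control, most of it Cyp19a1, and Amh was at 0 in 3 of the 4 libraries. The 6 sperm markers summed to between 8.20 and 16.8 CPM in knockdown and between 11.8 and 13.0 CPM in control, with Tnp2 at 0 in both knockdown libraries. Their part in the members' values was not tested.

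Cdc20, the coactivator that turns the APC/C on in mitosis (chromosome 4, 118432901 to 118437352), was at 76.9 and 115 CPM in knockdown and 98.6 and 98.7 CPM in control. As with Fbxo43, the near-equal controls lay between a lower and a higher knockdown library, and the log2 fold change was -0.04 (SE 0.21, 95% interval -0.56 to 0.48). Fzr1, the coactivator of late mitosis and the following interphase (chromosome 10, 81366222 to 81378516), was at 15.4 and 24.6 CPM in knockdown and 17.9 and 17.3 CPM in control. It had the same shape, with a log2 fold change of 0.19 (SE 0.28, 95% interval -0.51 to 0.88).

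Among the phosphatases, Cdc25b, which in the mouse is needed for oocytes to resume meiosis (chromosome 2, 131186949 to 131198497), was at 30.3 and 40.7 CPM in knockdown and 25.9 and 27.3 CPM in control. Both knockdown libraries lay above both controls, which was so for 15.6% of all genes tested, and the log2 fold change of 0.42 (SE 0.21, 95% interval -0.10 to 0.93) did not pass the test (edgeR, unadjusted p 0.0946). Leaving out 1 library moved it between 0.19, without knockdown replicate 2, and 0.62, without knockdown replicate 1. Cdc25a, which acts at both entry into S phase and mitosis (chromosome 9, 109875579 to 109893895), was at 22.3 and 30.0 CPM in knockdown and 24.6 and 21.4 CPM in control, with a log2 fold change of 0.19 (SE 0.22). Cdc25c, the mitotic phosphatase on chromosome 18 (34732993 to 34751533), was at 21.7 and 13.8 CPM in knockdown and 16.9 and 20.5 CPM in control, with a log2 fold change of -0.07 (SE 0.29). For Cdc25a and Cdc25c the groups overlapped.

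Cdc25c shares 623 exon bases with Gm3550, Cdc25b shares 92 with Spef1, Cdc20 shares 53 with Elovl1 and Fzr1 shares 4 with Mfsd12, each on the other strand. How strand was treated in counting is not known here, so reads in these stretches could belong to either gene. Gm3550 was at 6.08 and 4.57 CPM in knockdown and 4.12 and 4.77 CPM in control. Elovl1 was at 32.8 and 35.7 CPM in knockdown and 44.1 and 45.8 CPM in control, and Spef1 and Mfsd12 stayed under 4 CPM.

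Wee2, the oocyte kinase that keeps Cdk1 inhibited (chromosome 6, 40439088 to 40466813), was the steadiest member. It was at 1139 and 1224 CPM in knockdown and 1178 CPM in both control libraries, and its log2 fold change of 0.0046 had the narrowest interval of the 10 (SE 0.08, 95% interval -0.20 to 0.21). Wee1, the kinase of dividing somatic cells (chromosome 7, 110122046 to 110143286), was at 23.2 and 15.3 CPM in knockdown and 17.1 and 20.4 CPM in control, so the knockdown libraries lay on either side of the controls. Its log2 fold change was 0.04 (SE 0.27). Wee1 lies inside the antisense gene 1600010M07Rik, with which it shares 0 exon bases, and which was at 11.2 and 1.61 CPM in knockdown and 4.31 and 6.69 CPM in control. The ranks of the 4 libraries were the same for both genes, and reads of one counted for the other were not tested for.

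**Figure D2:**
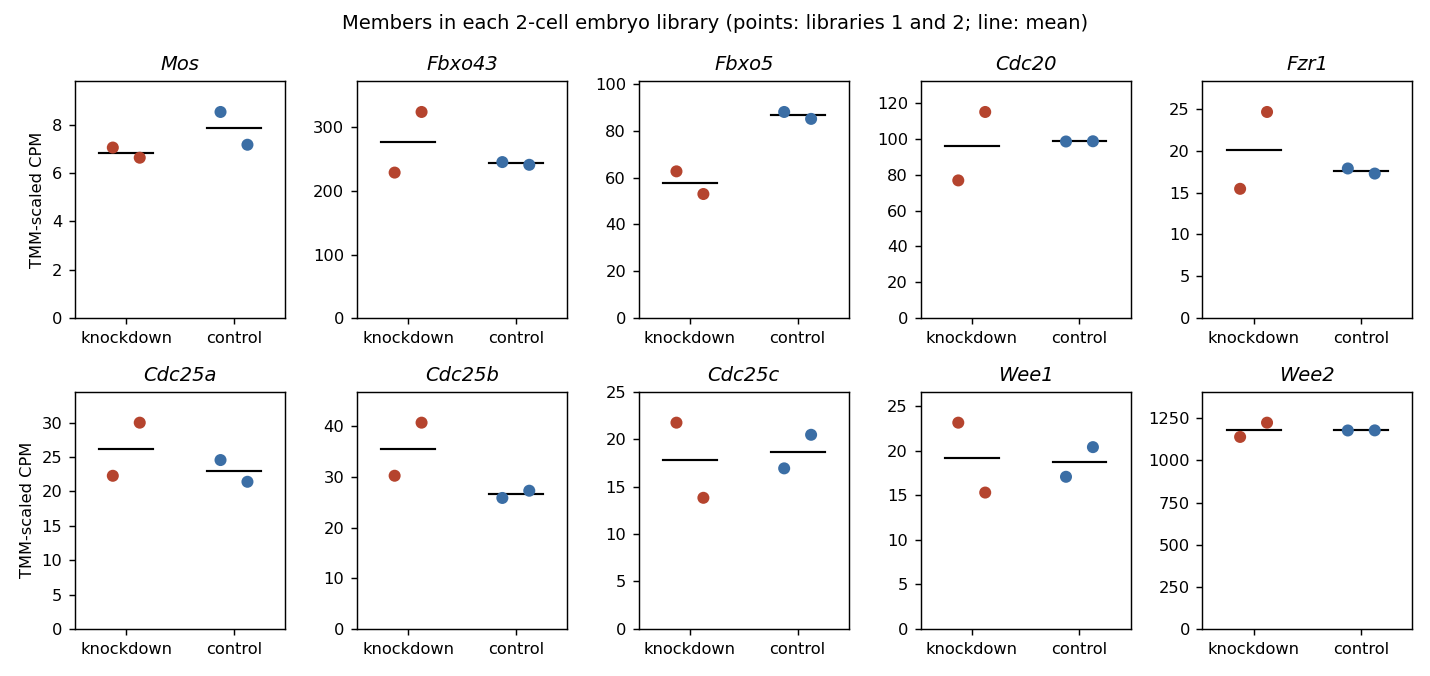
TMM-scaled CPM of each member in each library, with knockdown left and control right; points are libraries and lines are means of 2. The groups are apart for Fbxo5, Cdc25b and Mos, and for the other 7 at least one library of one group lies within or across the other group's range.

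Of the 10 members 3, or 30.0%, had groups that did not overlap (Fbxo5, Mos and Cdc25b), against 32.7% of all genes tested, so this share is near the background. In 9 of the 10 members the knockdown replicates were further apart than the control replicates, and so they were in 70.5% of the 8185 genes that averaged 10 CPM or more. The median absolute log2 difference of the members was 0.47 within the knockdown pair and 0.06 within the control pair. For the 8185 genes it was 0.26 within the knockdown pair and 0.13 within the control pair.

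Pairs of members were set against each other within a library, since such a ratio does not depend on library scaling. With 2 libraries against 2, the smallest exact permutation p is 0.333, so none of the 6 ratios compared could pass a threshold of 0.05. The ratio of Fbxo5 to Fbxo43, the APC/C inhibitors of the cycle and of the egg, was 0.552 and 0.330 in knockdown and 0.723 and 0.712 in control. It was lower in both knockdown libraries, with a difference in mean log2 ratio of -0.75 (two-sided exact permutation p 0.333, adjusted 0.50). Without knockdown replicate 1 the difference was -1.12, and without knockdown replicate 2 it was -0.38.

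The ratio of Cdc20 to Fzr1, coactivators whose levels were both higher in knockdown replicate 2 than in replicate 1, was 12.0 and 11.2 in knockdown and 13.2 and 13.7 in control. The knockdown libraries differed far less in this ratio than in either gene alone, while the control libraries, close for both genes, did not. The difference in mean log2 ratio was -0.22 (two-sided exact permutation p 0.333, adjusted 0.50). The summed Cdc25 phosphatases stood at 0.0414 and 0.0443 of the summed Wee kinases in knockdown and 0.0354 and 0.0371 in control, a difference of 0.24 in mean log2 ratio (p 0.333 by the same exact test, adjusted 0.50). Wee2 made up 98.2% and 98.9% of the summed kinases in knockdown and 98.7% and 98.4% in control, so Wee2 sets the denominator of this ratio.

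The ratio of Cdc25b to Cdc25a was 2.92 in both knockdown libraries and 2.27 and 2.75 in the control libraries, a difference of 0.23 in mean log2 ratio (exact permutation p 0.333, adjusted 0.50). Without control replicate 1 the difference was 0.09. Wee2 over Wee1 was 53.6 and 87.0 in knockdown and 75.0 and 62.8 in control, and Mos over Fbxo43 was 0.0859 and 0.0571 in knockdown and 0.0968 and 0.0829 in control. The groups overlapped for both of these ratios.

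**Figure D3:**
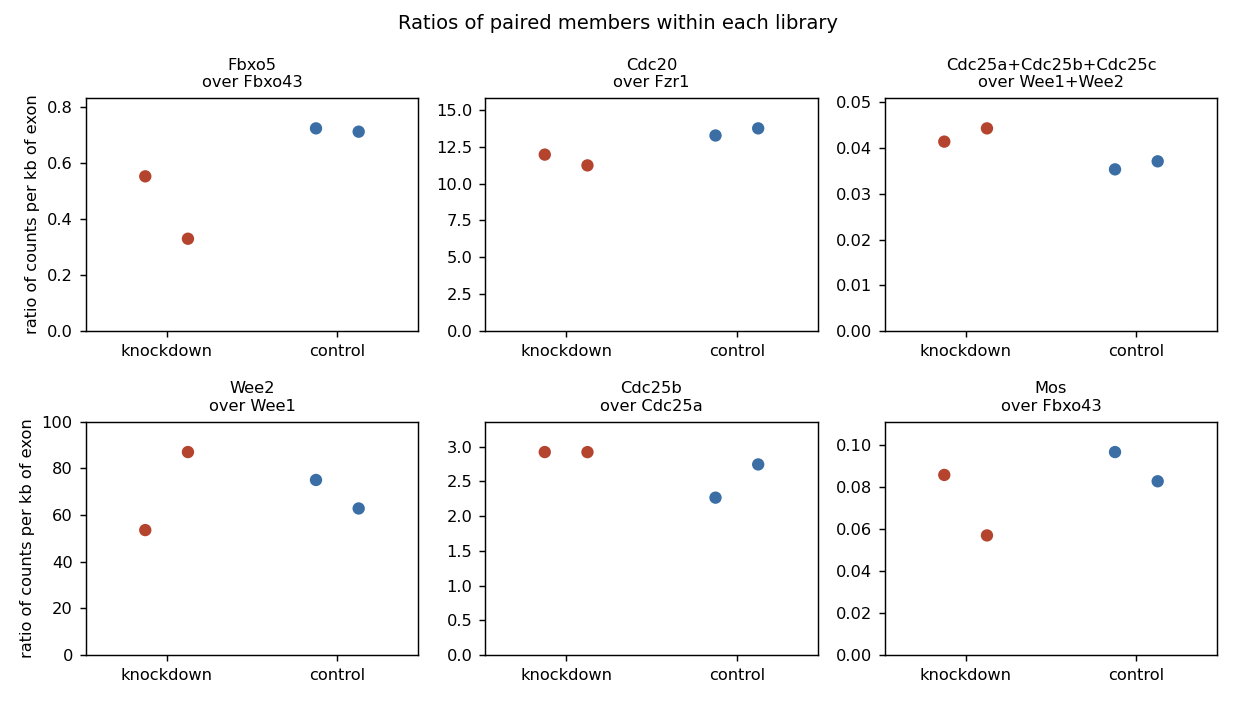
Ratios of counts per kb of exon between members within each library, knockdown left and control right, with axes from 0. Fbxo5 over Fbxo43 is 0.552 and 0.330 in knockdown and 0.723 and 0.712 in control, while Cdc20 over Fzr1 varies little within a group.

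The promoters of Fbxo5 and Cdc25b, the members with the smallest p in each direction, are shown with that of Cdc20 for comparison, from 250 bases before to 50 after the RefSeq start (GRCm38.p6, gene strand). Capitals mark the CCAAT box bound by NF-Y (CCAAT), the cell cycle homology region (TTTGAA or TTTAAA) and the E2F element (TTTCCCGC or TTTGGCGC), each searched on both strands.
Fbxo5: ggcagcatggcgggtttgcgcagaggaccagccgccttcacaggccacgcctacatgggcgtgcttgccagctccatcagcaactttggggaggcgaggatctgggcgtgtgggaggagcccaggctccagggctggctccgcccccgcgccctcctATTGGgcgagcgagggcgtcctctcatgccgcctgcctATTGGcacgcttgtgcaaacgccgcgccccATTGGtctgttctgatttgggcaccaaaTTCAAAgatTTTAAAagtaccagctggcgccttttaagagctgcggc
Cdc25b: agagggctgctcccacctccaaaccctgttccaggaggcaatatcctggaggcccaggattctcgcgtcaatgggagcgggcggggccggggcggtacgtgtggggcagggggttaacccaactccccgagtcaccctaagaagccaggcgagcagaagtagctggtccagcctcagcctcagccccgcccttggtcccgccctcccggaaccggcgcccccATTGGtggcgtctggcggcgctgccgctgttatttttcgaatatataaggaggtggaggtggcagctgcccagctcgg
Cdc20: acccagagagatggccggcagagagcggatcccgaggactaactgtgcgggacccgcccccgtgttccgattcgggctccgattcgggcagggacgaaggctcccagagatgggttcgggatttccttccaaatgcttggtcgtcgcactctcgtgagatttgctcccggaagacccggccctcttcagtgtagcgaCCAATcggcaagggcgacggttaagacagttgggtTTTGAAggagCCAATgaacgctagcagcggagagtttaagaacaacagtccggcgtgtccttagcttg
These stretches are chr10:5805416-5805715 on the minus strand for Fbxo5, chr2:131186698-131186997 on the plus strand for Cdc25b and chr4:118437294-118437593 on the minus strand for Cdc20. Fbxo5 has CCAAT on the reverse strand beginning 93, 55 and 25 bases before the start, and Cdc25b has one beginning 28 bases before it. The cell cycle homology letters of Fbxo5 begin 3 and 12 bases after its start, and not before it. Cdc20 has TTTGAA beginning 18 bases before its start, between CCAAT boxes that begin at 53 and 8 bases. Promoters were matched for 6 of the 10 members. All 6 (Fbxo5, Cdc20, Fzr1, Cdc25a, Cdc25b and Wee2) held at least 1 CCAAT, which was present in 37.4% of the 32851 promoters in the table. The cell cycle homology letters were in Fbxo5 and Cdc20, against 27.6% of promoters, and an E2F element was in Cdc25a, against 1.56%. Of the 6 members with a promoter, all but Cdc20 had CCAAT on the reverse strand, and nothing was tested about the binding of a factor.

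The wider pathway showed no gene past the test either. Of 82 tested genes in 6 lists, 0 were called in either direction (edgeR, adjusted p 0.9999 for each named gene), and 1 had an unadjusted p under 0.05. Fold changes were above 0 for 46 (56.1%) and below for 36, with a median of 0.03. Of all genes that averaged 10 CPM or more, 55.4% were above 0, with a median of 0.026. Groups did not overlap for 24 of the 82 pathway genes in all, 11 higher and 13 lower in knockdown, or 29.3%, against 32.7% of all genes tested.

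Cdk1, the kinase on which these switches act, was at 55.7 and 39.7 CPM in knockdown and 65.8 and 67.0 CPM in control. Both its knockdown libraries lay below both controls, as for 17.1% of all genes tested (log2 fold change -0.48, SE 0.20, edgeR unadjusted p 0.0560). As for Fbxo5, the lowest value was in knockdown replicate 2, though Cdk1 is named here for having the smallest p of its list. Pkmyt1, the membrane-bound relative of Wee1, was at 8.43 and 8.77 CPM in knockdown and 10.1 and 15.9 CPM in control, and Mnat1, a subunit of the kinase that activates Cdk1, at 11.5 and 9.66 CPM in knockdown and 12.8 CPM in both controls. Of the 15 genes around Cdk1, 5 had fold changes above 0 and 10 below.

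Of the 17 APC/C subunits and E2 enzymes, 10 lay above 0 and 7 below, with a median log2 fold change of 0.05. Ube2c, the E2 enzyme that primes APC/C substrates, was at 59.2 and 48.4 CPM in knockdown and 63.5 and 67.4 CPM in control. The subunit Anapc11, which binds the E2 enzyme, was at 37.0 and 31.1 CPM in knockdown and 39.6 and 40.5 CPM in control, and the subunit Anapc5 at 81.9 and 87.8 CPM in knockdown and 76.7 and 68.4 CPM in control. Spindle checkpoint inhibitors of Cdc20 had 4 genes above 0 and 5 below. Mad2l1, which binds Cdc20 directly, was at 1060 and 1101 CPM in knockdown and 961 and 1005 CPM in control, and Bub1, a checkpoint kinase, at 107 and 108 CPM in knockdown and 121 and 123 CPM in control. Mad2l1bp, which helps to take Mad2l1 out of the checkpoint complex, was at 106 and 97.3 CPM in knockdown and 106 and 119 CPM in control.

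Of the 14 tested genes of the Mos cascade and of calcium release, 10 lay above 0 and 4 below. Rps6ka2, a ribosomal S6 kinase at the end of the Mos cascade, was at 0.228 and 0.373 CPM in knockdown and 0.959 and 2.38 CPM in control, the only one of the 82 genes with an unadjusted p under 0.05 (edgeR, 0.0210), at a level under 3 CPM. Itpr1, the calcium release channel of the egg, was at 172 and 177 CPM in knockdown and 155 and 153 CPM in control, and Ppp3ca, a calcineurin subunit, at 20.0 and 19.8 CPM in knockdown and 15.3 and 18.0 CPM in control.

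Greatwall and PP2A genes had 8 of 12 above 0. Arpp19, a PP2A inhibitor activated by Greatwall, was at 313 and 364 CPM in knockdown and 300 and 290 CPM in control, and Ppp2r2a, a B55 subunit of PP2A, at 90.7 and 107 CPM in knockdown and 75.9 and 85.9 CPM in control. Ppp2r2c, another B55 subunit, stayed under 2 CPM in all 4 libraries. Of the 15 checkpoint kinases and Cdc25 binding proteins 9 lay above 0. Ywhah, a 14-3-3 protein of the family that binds phosphorylated Cdc25, was at 57.7 and 75.2 CPM in knockdown and 51.8 CPM in both controls. Atr, the kinase that signals stalled replication, was at 52.1 and 45.3 CPM in knockdown and 58.2 and 58.9 CPM in control, and Mapkapk2, a stress kinase, at 1.66 and 0.554 CPM in knockdown and 2.81 and 2.79 CPM in control.

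**Figure D4:**
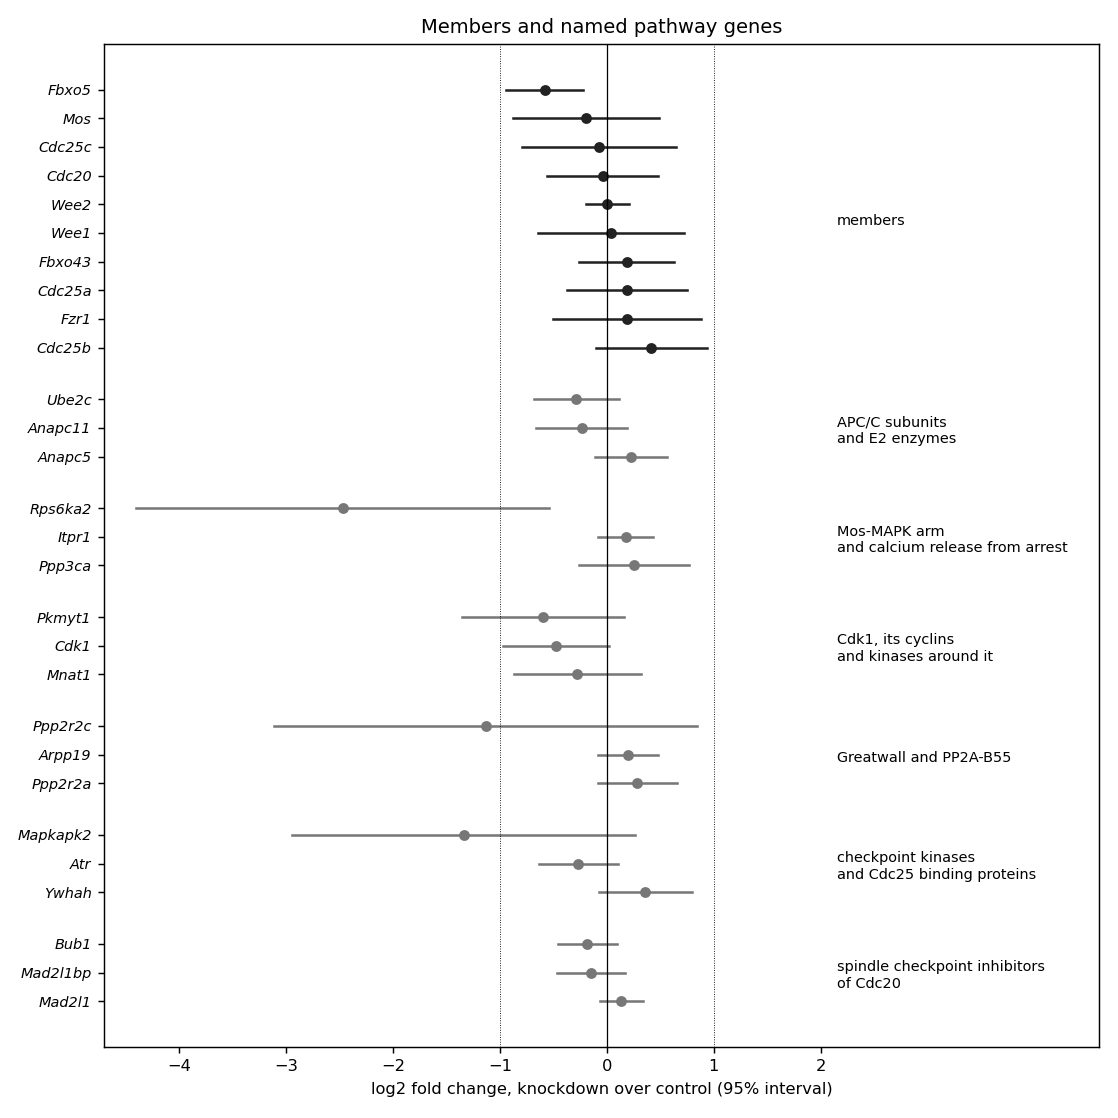
Log2 fold changes, knockdown over control, with 95% intervals for the 10 members (black) and the 3 genes of smallest p in each of 6 pathway lists (grey); dotted lines mark 2-fold. Every member's interval lies within 2-fold, and those of Fbxo5 and Rps6ka2 lie below 0 before adjustment.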

How the data were processed

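Whole-number counts per gene, deposited by the authors and by their values not normalized, were used as they stand. Per the submitters' processing notes, the build was mm10 and the tools included HISAT2 2.1.0 and Trim Galore 0.6.5, beside CASAVA 1.8 and Picard 2.18.2, with no role for each. Counting tool, annotation release and strand setting: not given in the sources used here. No molecular identifiers are named.

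Row IDs without version were matched to GENCODE M21 on GRCm38 (53620 of 53715 rows; the other 95 made up no more than 0.0164% of any library). edgeR 4.0.16 in R 4.3.3 (filterByExpr with a minimum of 10 counts, TMM scaling, quasi-likelihood F-test, group as the only term) was fitted on all 25565 genes kept, with Benjamini-Hochberg adjustment over all of them and a threshold of 0.05. SE is the log2 fold change over the square root of F. Levels per kb use all annotated exons of a gene, and ratios use counts per kb. DESeq2 1.42.0 and limma-voom (limma 3.58.1) were alternatives. The test was checked on simulated data.

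Samples were grouped by title. The labels do not say that libraries came from separate collections of embryos, so p-values measure only the spread between these libraries. Even the most alike libraries, those of control, differed beyond sampling noise (chi-square over degrees of freedom 30.9), and no library was counted as a repeat. The members, the ratios and the pathway and marker lists were chosen with earlier results of these data known. All 10 members were named, with the 3 genes of smallest p in each pathway list. Promoters come from RefSeq (GRCm38.p6).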

Additional observations from a re-analysis of the deposited data

How the results depend on the processing

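None of the 10 members passed an adjusted p of 0.05 under any of the 11 alternatives, and the smallest value was 0.158, for Fbxo5 without knockdown replicate 1, a fit in which the control pair alone gives the spread and the lone knockdown library is assumed to vary like it. The direction held under all alternatives run for Fbxo5, Cdc25b and Mos and for the 18 named pathway genes. The groups of these members did not overlap, so leaving out 1 library could hardly turn their direction. The pathway genes were picked by smallest p from these same data, which favours a stable direction. The filter at a mean of 10 CPM left out Mos, Rps6ka2, Ppp2r2c and Mapkapk2, which have no value there. DESeq2 called 20 genes higher and 33 lower in knockdown, where edgeR called 0; over the fits that leave out a library the calls ran between 0 and 2 higher and between 0 and 1 lower. Leaving out 1 library turned the direction of 7 members, whose log2 fold changes then ran between -0.082 and 0.42 for Fbxo43, -0.35 and 0.22 for Cdc20, -0.18 and 0.49 for Fzr1, -0.040 and 0.39 for Cdc25a, -0.43 and 0.22 for Cdc25c, -0.29 and 0.31 for Wee1 and -0.042 and 0.056 for Wee2. Wee2 was also below 0 with library totals only (-0.037) and with the filter at a mean of 10 CPM (-0.020). The causes were not tested. With lengths of principal transcripts, chosen after seeing the data, the difference in log2 ratio of summed Cdc25 to summed Wee genes was 0.18 in place of 0.24, since each Cdc25 then has another weight in the sum. The replicate numbers are not said to pair libraries. The log2 differences between replicates 1 and 2 had a correlation of -0.02 between the groups over all genes tested. Only 8185 of these 25565 genes averaged 10 CPM or more, so a batch shared by same-numbered libraries could be missed. With the replicate block 0 genes were called higher and 0 lower, with 173 and 306 at an unadjusted p under 0.05, and Fbxo5 was at -0.59 on the log2 scale. With 2 libraries per group, effects the size of most members' cannot be told from library spread.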

Other observations

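The knockdown libraries differed from each other in both directions among the members, 6 higher and 4 lower in replicate 2. Any 2 libraries split genes in this way, and the share of all genes higher in knockdown replicate 2 was not counted. In knockdown replicate 2, Fbxo43, Cdc20, Fzr1, Cdc25a, Cdc25b and Wee2 were higher than in knockdown replicate 1, and Mos, Fbxo5, Cdc25c and Wee1 were lower. On the log2 scale Fzr1 was 0.67, Cdc20 0.58 and Fbxo43 0.50 higher, while Cdc25c was -0.65 and Wee1 -0.60. The control libraries of Fzr1, Cdc20 and Fbxo43 differed by at most 0.05 in either direction, while those of Cdc25c and Wee1 differed by 0.27 and 0.26.

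Over the 4 libraries, the pathway genes whose log2 CPM was most like that of Fbxo5 among 74 compared were Atr (Pearson r 0.975) and Mnat1 (0.959). For Cdc25b they were Ywhah (0.994) and Ppp2ca (0.977), and for Fbxo43 the checkpoint kinase Ttk (0.998) and the cyclin Ccna2 (0.996). These are descriptions over 4 points that share their library scaling, picked as the highest of 74, and they have no test.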
